A study of Homo sapiens with 6 samples.

Results

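The APOBEC3 genes encode cytidine deaminases, enzymes that turn cytosine into uracil in single-stranded DNA. In the germline and in somatic cells they act against retroviruses and retrotransposons by mutating their reverse transcripts or by blocking reverse transcription, and misdirected activity of some members leaves mutations in the genome of the cell itself. Humans carry the genes side by side on chromosome 22, where they arose by duplication of domains built around 1 zinc-binding motif. The 7 members, APOBEC3A, APOBEC3B, APOBEC3C, APOBEC3D, APOBEC3F, APOBEC3G and APOBEC3H, were taken by name from a table of 48183 gene names, and counts of identifiers that share a name were summed, so that the 7 names cover 8 of 61196 gene identifiers. APOBEC3A has 2 identifiers, 1 of them (ENSG00000262156) outside the chromosomes, with 3 to 11 counts per library. All 7 members passed the filter on low counts, APOBEC3H only through the group of libraries where it was higher.

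Bulk RNA-seq was available for 6 libraries of human embryonic stem cells, 4 in the naive state, which resembles the pre-implantation epiblast, and 2 in the primed state, which resembles the epiblast after implantation. The sample labels name the cells H1, whereas the text of the study names H9. Both are established lines of human embryonic stem cells, and the label is used here. All cells carry EOS, a GFP reporter of the naive state. The naive libraries were 2 of cells induced with AICAR (AICAR naive 1 and AICAR naive 2), an activator of the kinase AMPK, 1 of cells induced with valproic acid (VPA naive), and 1 of cells induced with doxycycline, which switches on a transgene for constitutively active p38 (CA-p38 naive). On the primed side stood 1 library of the EOS line itself (EOS primed), the parent of the AICAR and VPA cells, and 1 of the line with the p38 transgene, not converted (CA-p38 primed), the parent of the CA-p38 naive cells. When this transgenic line was made, the study gave doxycycline and sorted for mCherry, a fluorescent protein on the same vector. The EOS line did not go through that step. After induction naive cells were grown in PXGL, a medium with inhibitors of MEK, tankyrase and protein kinase C and with LIF, and were sorted for CD75 and SUSD2 before RNA was taken. Primed cells grew in StemFit AK02N, and no sort is given for them at that step. The labels give mouse fibroblast feeders for naive culture, but the study moved CA-p38 cells to a feeder-free form of the medium later on, and whether the sequenced CA-p38 naive cells had feeders was not given in the sources used here. State, medium, sort and, where used, feeders therefore cannot be told apart in any value below.

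Libraries held 46823699 to 54277064 counts, so that 3 counts, the floor used here, correspond to 0.0553 to 0.0641 CPM (counts scaled to library size, as defined with the processing). The labels fitted the markers: 12 of 12 naive markers were higher in naive cells (summed 5445 to 6545 CPM against 11.04 to 14.7 CPM) and 10 of 10 primed markers were lower (63.5 to 81.6 CPM against 3575 to 4219 CPM). Since blood cells express many APOBEC3 genes, leukocyte markers were read as well. Of 13, 10 could be tested, of which 8 were higher and 1 was lower in naive cells, and the sum of the list was 363 to 536 CPM against 197 to 210 CPM. Most of this sum was LCP1, at 308 to 481 CPM in naive cells. PTPRC, the general leukocyte surface phosphatase, had 0 to 7 counts in every library, CD2 had 0, and CD3E had at most 1 count in naive libraries against 14 and 7 in primed ones. ITGAM, an integrin of myeloid cells, went from 2 and 5 counts in primed libraries to 24.1 to 44.9 CPM in naive ones. Of 8 fibroblast markers, 0 were called higher by edgeR (1 at an unadjusted p under 0.05, 0 by DESeq2 and 0 by limma-voom) and 5 were lower in naive cells.

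The stretch that carries the catalytic motif shows how close the members are, which bears on the counts because reads cannot be assigned between identical stretches. The zinc-binding core of each member is given as its coding sequence (for APOBEC3B, APOBEC3D, APOBEC3F and APOBEC3G, which have 2 such cores, the one nearer the C terminus), 5′ to 3′ on the plus strand of chromosome 22 in GRCh38. Capitals mark the codons of the histidine and the glutamate and of the pair of cysteines of the motif. Each stretch lies within 1 exon, exon 3 in APOBEC3A (chr22:38961420-38961530), APOBEC3C (chr22:39017787-39017891) and APOBEC3H (chr22:39101246-39101350) and exon 6 in APOBEC3B (chr22:38991365-38991475), APOBEC3D (chr22:39031715-39031819), APOBEC3F (chr22:39052095-39052199) and APOBEC3G (chr22:39086312-39086416).
APOBEC3A: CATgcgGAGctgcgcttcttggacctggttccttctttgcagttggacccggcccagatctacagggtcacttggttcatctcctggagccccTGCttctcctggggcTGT
APOBEC3B: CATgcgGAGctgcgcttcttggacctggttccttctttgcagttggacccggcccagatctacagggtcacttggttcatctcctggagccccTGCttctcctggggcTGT
APOBEC3C: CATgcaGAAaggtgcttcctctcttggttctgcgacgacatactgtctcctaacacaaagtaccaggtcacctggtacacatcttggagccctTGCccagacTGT
APOBEC3D: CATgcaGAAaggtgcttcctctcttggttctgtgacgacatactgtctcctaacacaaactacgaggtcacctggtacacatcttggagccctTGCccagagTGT
APOBEC3F: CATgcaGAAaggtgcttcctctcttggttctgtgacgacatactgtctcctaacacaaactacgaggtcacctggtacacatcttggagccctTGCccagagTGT
APOBEC3G: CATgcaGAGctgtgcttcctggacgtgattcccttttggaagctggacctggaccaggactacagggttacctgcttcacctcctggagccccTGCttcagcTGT
APOBEC3H: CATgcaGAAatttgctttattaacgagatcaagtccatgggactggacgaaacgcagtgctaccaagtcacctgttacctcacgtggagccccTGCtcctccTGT

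The cores of APOBEC3A and APOBEC3B were identical over 111 bases, and those of APOBEC3D and APOBEC3F over 105 bases. The core of APOBEC3C matched that of APOBEC3D and of APOBEC3F at 96.2% of bases, and the core of APOBEC3G matched that of APOBEC3A at 81.9%. Over the whole aligned coding sequence, identity was 94.1% between APOBEC3A and APOBEC3B, 90.7% between APOBEC3C and APOBEC3D and 90.3% between APOBEC3D and APOBEC3F. Along the main transcript of APOBEC3B, 20.5% of all windows of 100 bases recurred in another member, and the share was 13.9% in APOBEC3A, 9.23% in APOBEC3D, 7.30% in APOBEC3G and 5.96% in APOBEC3F. APOBEC3C and APOBEC3H shared no window of that length with another member. The read length was not given in the sources used here, so values of members that share sequence are given below for each gene and, where the sharing is high, for their sum.

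The APOBEC3 genes moved in both directions between the states. APOBEC3C, APOBEC3D, APOBEC3F, APOBEC3G and APOBEC3H were higher in naive cells by 1.30-fold to 18.5-fold, APOBEC3B was 4.83-fold higher in primed cells, and APOBEC3A did not pass the test. These 5 higher and 1 lower of 7 members were read off an edgeR quasi-likelihood fit over 26497 genes, with Benjamini-Hochberg adjusted p under 0.05, in which 26% of all genes were called higher and 27% lower in naive cells. In 6 of 7 members every naive library lay above both primed libraries, as in 32.9% of all genes, and in 1, APOBEC3B, every naive library lay below both, as in 32.1% of all genes. The median log2 fold change of the members was 1.60 against 0.11 for all genes tested, and 4 of 7 members were called and at least 2-fold higher, as were 18.6% of all genes. All these counts of higher members include APOBEC3H, which passed the filter on low counts only through the naive libraries. In bulk libraries, fewer cells with a transcript and less of it per cell cannot be told apart.

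**Figure D1:**
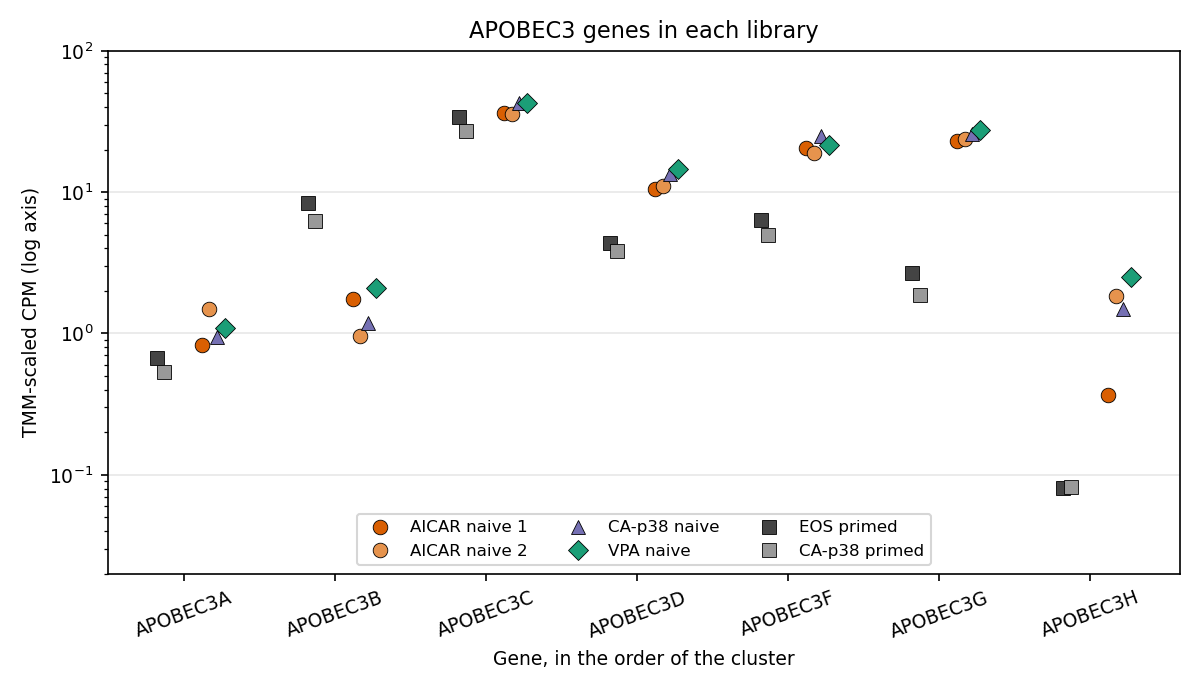
CPM (TMM-scaled, log axis) of the 7 APOBEC3 genes, in the order of the cluster, in the 4 naive and 2 primed libraries, 1 point per library. Only APOBEC3B has its primed points above its naive ones, and the gap between the states is widest for APOBEC3G and APOBEC3H.

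APOBEC3G encodes the enzyme that is packed into HIV particles lacking the viral protein Vif and then mutates the viral cDNA. It lies on chromosome 22 at 39077067 to 39087743 and has 8 exons. APOBEC3G was at 23.0 CPM in AICAR naive 1, 23.6 in AICAR naive 2, 25.7 in CA-p38 naive and 27.6 in VPA naive, against 2.67 CPM in EOS primed and 1.88 in CA-p38 primed. The 4 naive libraries lay close together, with a coefficient of variation of 8.48%, the smallest of the 7 members, and the lowest of them stood far above the higher primed library. The mean was 24.99 ± 2.12 CPM (SD, n = 4) in naive and 2.27 ± 0.555 CPM (n = 2) in primed cells, a log2 fold change of 3.46 (SE 0.21, edgeR adjusted p = 2.18e-08), above that of 95.3% of all genes tested.

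APOBEC3F and APOBEC3D encode enzymes of a like build that are also packed into particles and also met by Vif, with a weaker effect on the virus than APOBEC3G. APOBEC3F (chromosome 22, 39040604 to 39055972, 7 exons) was at 20.4, 18.8, 25.1 and 21.6 CPM in AICAR naive 1, AICAR naive 2, CA-p38 naive and VPA naive, and at 6.34 and 4.97 CPM in EOS primed and CA-p38 primed. The groups did not overlap, and the log2 fold change was 1.92 (SE 0.19, edgeR adjusted p = 2.39e-06). APOBEC3D (39021113 to 39033277, 7 exons) was at 10.5, 11.1, 13.4 and 14.6 CPM in the same order of naive libraries and at 4.36 and 3.80 CPM in the primed ones. Here too every naive library was above both primed libraries, with a log2 fold change of 1.60 (SE 0.22, edgeR adjusted p = 4.26e-05).

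Part of the APOBEC3D counts cannot be placed with certainty. The annotation also holds a readthrough gene, ENSG00000284554 (chr22:39014363-39033276), which runs from APOBEC3C into APOBEC3D, and 83.7% of all windows of 100 bases of APOBEC3D recur in it. The readthrough had 210, 203, 288 and 327 counts in AICAR naive 1, AICAR naive 2, CA-p38 naive and VPA naive, and 90 and 59 in EOS primed and CA-p38 primed, so that it was higher in every naive library. Taken as 1 sum, APOBEC3D, APOBEC3F and the readthrough reached 38.8 ± 5.21 CPM (n = 4) in naive and 11.2 ± 1.80 CPM (n = 2) in primed cells, 3.45-fold more, and the lowest naive library was 2.71-fold above the higher primed one.

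APOBEC3H encodes a single-domain enzyme that differs between people in protein stability. It lies at the far end of the cluster (39097224 to 39104067, 5 exons) and was the scarcest member of primed cells. APOBEC3H had 20 counts in AICAR naive 1, 91 in AICAR naive 2, 75 in CA-p38 naive and 131 in VPA naive, against 4 counts in each primed library, close to the floor of 3. All naive libraries were higher, but they spread more than for any other member (1.55 ± 0.892 CPM, n = 4, a coefficient of variation of 57.7%), with the highest 6.80-fold above the lowest. The log2 fold change was 4.21 with the widest error of the 7 (SE 0.80, edgeR adjusted p = 0.000678), and its size rests on 4 counts in each primed library.

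APOBEC3C encodes a single-domain enzyme with weak activity against retroviruses, and it had the most counts of the family in every library. APOBEC3C (39014257 to 39020352, 4 exons) was at 36.4, 35.8, 42.9 and 42.7 CPM in AICAR naive 1, AICAR naive 2, CA-p38 naive and VPA naive, and at 33.8 and 26.9 CPM in EOS primed and CA-p38 primed. The naive libraries were all higher, yet AICAR naive 2 exceeded EOS primed by little. The log2 fold change of 0.38 (SE 0.14, edgeR adjusted p = 0.0416) was the smallest of the called members and above that of only 58.6% of all genes. This call held in 6 of 15 alternatives, over which the log2 fold change ran from 0.23 to 0.54 and the adjusted p from 0.0153 to 0.327. Without the library CA-p38 primed the log2 fold change was 0.23 (adjusted p = 0.327), without CA-p38 naive 0.32 (adjusted p = 0.105), without VPA naive 0.32 (adjusted p = 0.0915) and without AICAR naive 1 0.40 (adjusted p = 0.0516).

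APOBEC3B encodes the mostly nuclear member of the family, known as a source of mutations in tumours and described as a restrictor of LINE-1 retrotransposition in pluripotent stem cells. It lies on chromosome 22 at 38982347 to 38992804 with 8 exons. APOBEC3B had 412 counts in EOS primed and 304 in CA-p38 primed, against 96 in AICAR naive 1, 48 in AICAR naive 2, 60 in CA-p38 naive and 109 in VPA naive. Both primed libraries stood above all 4 naive ones, 7.27 ± 1.49 CPM (n = 2) against 1.50 ± 0.514 CPM (n = 4). The log2 fold change of naive over primed was -2.27 (SE 0.32, edgeR adjusted p = 4.95e-05), below that of all but 7.71% of genes tested, and it held in all 15 alternatives.

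APOBEC3A encodes a single-domain enzyme of monocytes and keratinocytes that interferon induces strongly. It opens the cluster at 38952741 to 38963184 with 5 exons. APOBEC3A had 45, 74, 48 and 57 counts in AICAR naive 1, AICAR naive 2, CA-p38 naive and VPA naive, and 33 and 26 in EOS primed and CA-p38 primed. The naive libraries were all slightly higher, at 1.09 ± 0.287 CPM (n = 4) against 0.599 ± 0.0954 CPM (n = 2), but the log2 fold change of 0.86 (SE 0.43, edgeR adjusted p = 0.110) did not pass the test, nor did it in any of 15 alternatives (adjusted p from 0.0638 to 0.349). Summed because of their shared sequence, APOBEC3A and APOBEC3B reached 2.59 ± 0.432 CPM (n = 4) in naive and 7.87 ± 1.58 CPM (n = 2) in primed cells, so that the sum was 3.04-fold higher in primed cells and the lower primed library was still 2.13-fold above the highest naive one.

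Beyond the members, the deposited table holds APOBEC3B-AS1, an antisense transcript at chr22:38991559-38998209 on the minus strand, which overlaps the 3′ part of APOBEC3B. Its values sum the identifier at this position (31 to 44 counts in naive libraries) and ENSG00000262679, outside the chromosomes (27 to 35 counts). In EOS primed they had 9 and 13 counts. APOBEC3B-AS1 was at 1.36 ± 0.154 CPM (n = 4) in naive and 0.253 ± 0.271 CPM (n = 2) in primed cells, opposite in direction to APOBEC3B, with a log2 fold change of 2.41 (SE 0.61, edgeR adjusted p = 0.00475). Its size depended on the primed libraries, which had 0.444 CPM in EOS primed and 0.0613 CPM in CA-p38 primed: the log2 fold change of APOBEC3B-AS1 was 4.40 without EOS primed and 1.62 without CA-p38 primed. In CA-p38 primed the identifiers had 2 and 1 counts, at the floor of 3, so the value without EOS primed rests on the floor. The library kit keeps strand, but whether the counting used it was not given, so reads of APOBEC3B and of its antisense partner may not be separated in full.

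Levels of different genes were compared only per transcript length, as CPM per kb of the MANE Select transcript, the reference transcript of each gene. In naive cells APOBEC3G (15.98 ± 1.36 CPM per kb, n = 4) and APOBEC3C (14.9 ± 1.47) came first. Their spreads between libraries overlap, although APOBEC3G was above APOBEC3C within each of the 4 naive libraries. They were followed by APOBEC3D (4.92 ± 0.761) and APOBEC3F (4.77 ± 0.595), whose order changed between libraries. APOBEC3H (1.50 ± 0.867), APOBEC3B (0.943 ± 0.323) and APOBEC3A (0.802 ± 0.212) came last, with overlapping spreads. In primed cells APOBEC3C (11.5 ± 1.83 CPM per kb, n = 2) was followed by APOBEC3B (4.57 ± 0.937), which was thus second in that state by this measure. APOBEC3D (1.62 ± 0.157), APOBEC3G (1.45 ± 0.355) and APOBEC3F (1.26 ± 0.216) were close to each other, and APOBEC3A (0.441 ± 0.0703) and APOBEC3H (0.0790) were lowest. The measure divides by the full transcript length and leaves out the readthrough gene, in which 83.7% of the 100-base windows of APOBEC3D recur. Reads from shared stretches may be lost unequally between genes. Levels of members that share sequence, APOBEC3D above all, may therefore be too low, and the order is uncertain to that extent.

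Added up, the family was at 93.3, 93.5, 110.7 and 112.1 CPM in AICAR naive 1, AICAR naive 2, CA-p38 naive and VPA naive and at 56.2 and 44.4 CPM in EOS primed and CA-p38 primed, 2.04-fold higher in naive cells on average. The make-up per transcript length differed more than the sum. APOBEC3B made up 21.3% to 22.3% of the family in primed libraries and 1.49% to 2.83% in naive ones. APOBEC3G made up 35.4% to 37.5% in naive libraries and 6.54% to 7.28% in primed ones. APOBEC3C remained a major part in both states, with 32.98% to 35.1% in naive and 54.5% to 55.4% in primed libraries. These shares are tied to each other, since they add up to the whole in each library. They carry the same limit from shared sequence as the levels per kb.

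**Figure D2:**
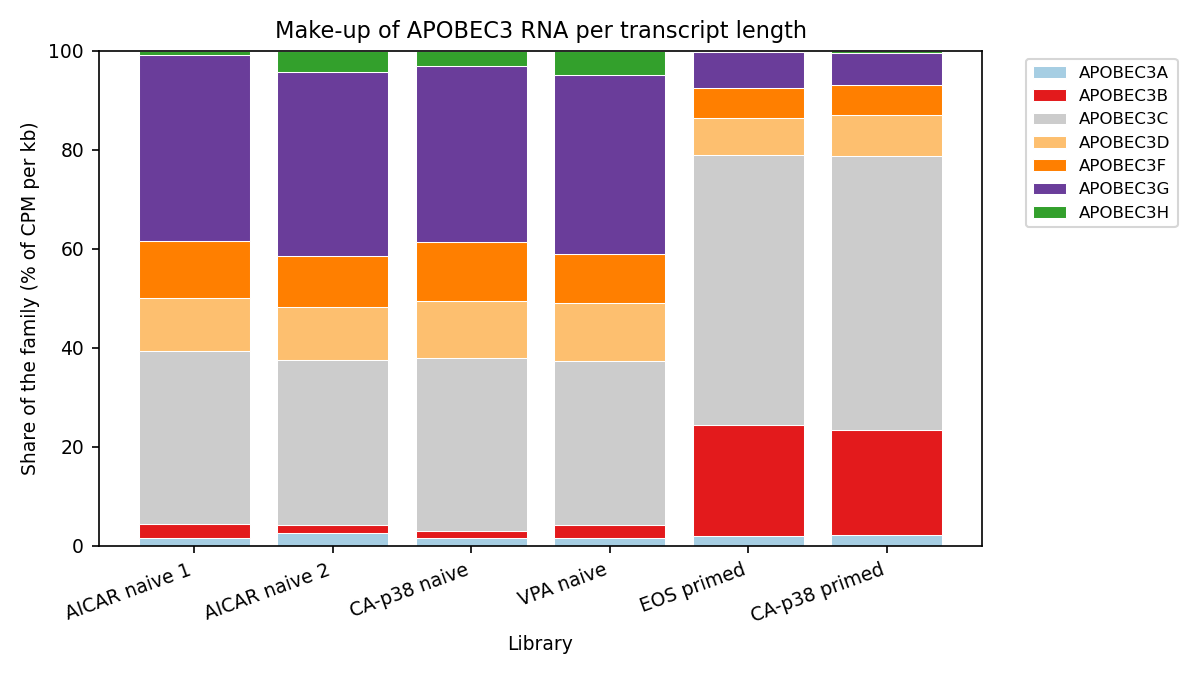
Share of each APOBEC3 gene in the summed CPM per kb of the family (%, stacked bars), 1 bar per library. APOBEC3B fills 21.3% to 22.3% of the 2 primed bars and 1.49% to 2.83% of the 4 naive bars, and APOBEC3G fills 35.4% to 37.5% of the naive bars.

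Each induced culture was then set beside its own parental primed library, with a 95% exact binomial interval that covers counting error only. No test was made here, as each line has 1 primed library, and the AICAR and VPA cultures share EOS primed. Of the folds, 24 were above 1, and the 4 below 1 were those of APOBEC3B in every culture. APOBEC3B was 4.69-fold lower in AICAR naive 1 than in its parental line (3.76 to 5.95), 8.54-fold lower in AICAR naive 2 (6.38 to 11.9), 3.98-fold lower in VPA naive (3.23 to 4.98) and 5.20-fold lower in CA-p38 naive (3.96 to 7.03). The direction was the same with all 3 inducers, and AICAR naive 2 had the largest fold, with an interval that overlaps that of CA-p38 naive but not those of the other cultures.

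APOBEC3G was 8.61-fold (7.21 to 10.4), 8.81-fold (7.38 to 10.7) and 10.3-fold (8.67 to 12.5) higher in AICAR naive 1, AICAR naive 2 and VPA naive than in EOS primed, and 13.6-fold (11.1 to 17.1) higher in CA-p38 naive than in CA-p38 primed. APOBEC3F rose least in AICAR naive 2 (2.96-fold, 2.61 to 3.38) and most in CA-p38 naive (5.05-fold, 4.40 to 5.82). APOBEC3D ranged from 2.41-fold (2.06 to 2.83) in AICAR naive 1 to 3.51-fold (2.98 to 4.15) in CA-p38 naive. In each of these 3 genes CA-p38 naive had the highest fold over its own parental library, and CA-p38 primed, its reference, was lower than EOS primed, by 1.42-fold for APOBEC3G, 1.28-fold for APOBEC3F and 1.147-fold for APOBEC3D. Over the mean of both primed libraries VPA naive was highest instead for APOBEC3G (log2 fold 3.60 against 3.50 in CA-p38 naive) and APOBEC3D (1.84 against 1.71), and CA-p38 naive remained highest for APOBEC3F.

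The remaining members were less even. APOBEC3H ran from 4.17-fold (1.53 to 18.3) in AICAR naive 1 to 27.7-fold (11.8 to 115) in VPA naive, with intervals that overlap. APOBEC3C was 1.59-fold higher (1.49 to 1.71) in CA-p38 naive and 1.26-fold higher (1.19 to 1.35) in VPA naive, but 1.08-fold (1.01 to 1.151) and 1.06-fold (0.990 to 1.13) in the AICAR cultures, the last with an interval that includes 1. The fold of APOBEC3A likewise had an interval that includes 1 in AICAR naive 1 (1.24-fold, 0.775 to 2.01), and was highest in AICAR naive 2 (2.22-fold, 1.46 to 3.48).

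**Figure D3:**
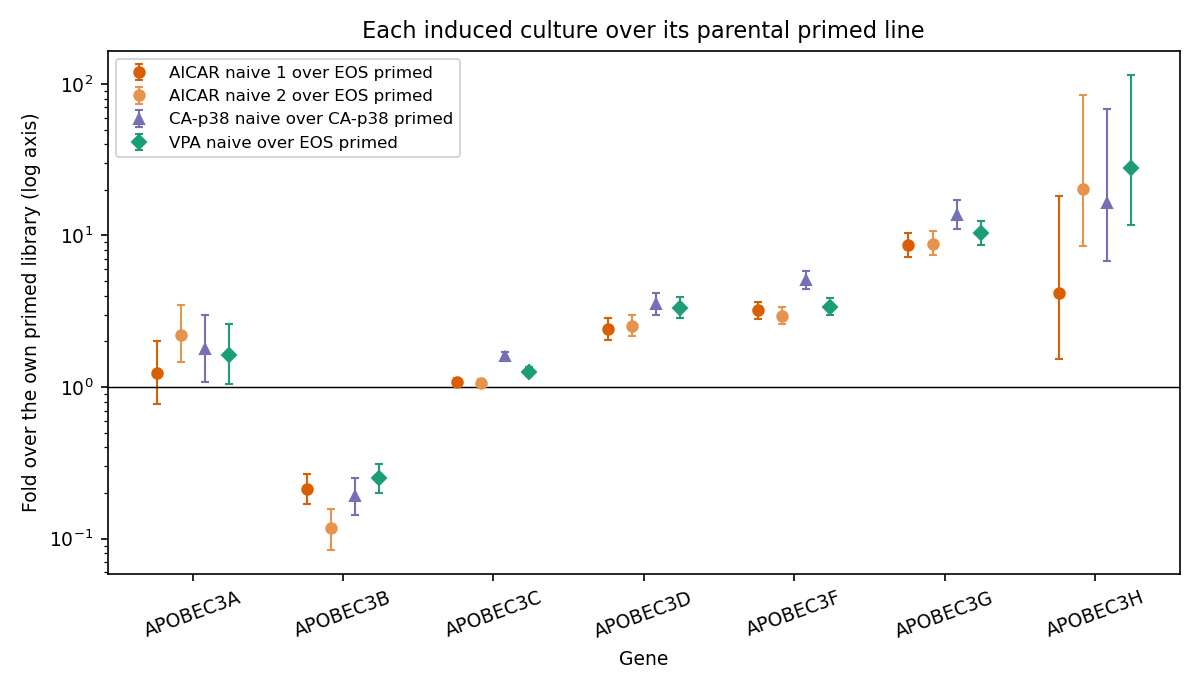
Fold of each induced naive culture over its own parental primed library (log axis) for the 7 APOBEC3 genes, with 95% exact binomial intervals that cover counting error only. All 4 cultures lie below 1 for APOBEC3B and above 8 for APOBEC3G, and the intervals of APOBEC3H are wide because each primed library has 4 counts.

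Along the chromosome, the log2 fold change of the members that were called higher followed the order of the genes, from APOBEC3C (0.38) over APOBEC3D (1.60), APOBEC3F (1.92) and APOBEC3G (3.46) to APOBEC3H (4.21), while APOBEC3A (0.86, not called) and APOBEC3B (-2.27), which come before APOBEC3C, do not continue this order. It did not hold in every culture, since over EOS primed the log2 fold in AICAR naive 1 was 2.06 for APOBEC3H and 3.11 for APOBEC3G. APOBEC3D and APOBEC3F, and likewise APOBEC3G and APOBEC3H, lay within about their summed SE of each other, and the differences between genes were not tested. The genes around the cluster were read for comparison. Of 17 neighbours tested, edgeR called 0 higher (2 at an unadjusted p under 0.05) and 11 lower in naive cells, DESeq2 called 0 higher and limma-voom 2, and their median log2 fold change was -0.62. CBX6, a Polycomb protein gene on the side of APOBEC3A, was at 18.1 ± 3.33 CPM in naive and 41.9 ± 3.28 CPM in primed cells (log2 fold change -1.21, SE 0.17, edgeR adjusted p = 4.55e-05). CBX7, another Polycomb gene and the next gene after APOBEC3H, had overlapping groups (log2 fold change -0.51, SE 0.37, adjusted p = 0.259). PDGFB, a growth factor gene beyond CBX7, had 3 to 9 counts in naive libraries and 1153 and 676 in primed ones (log2 fold change -7.07, SE 0.34, adjusted p = 2.9e-09).

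**Figure D4:**
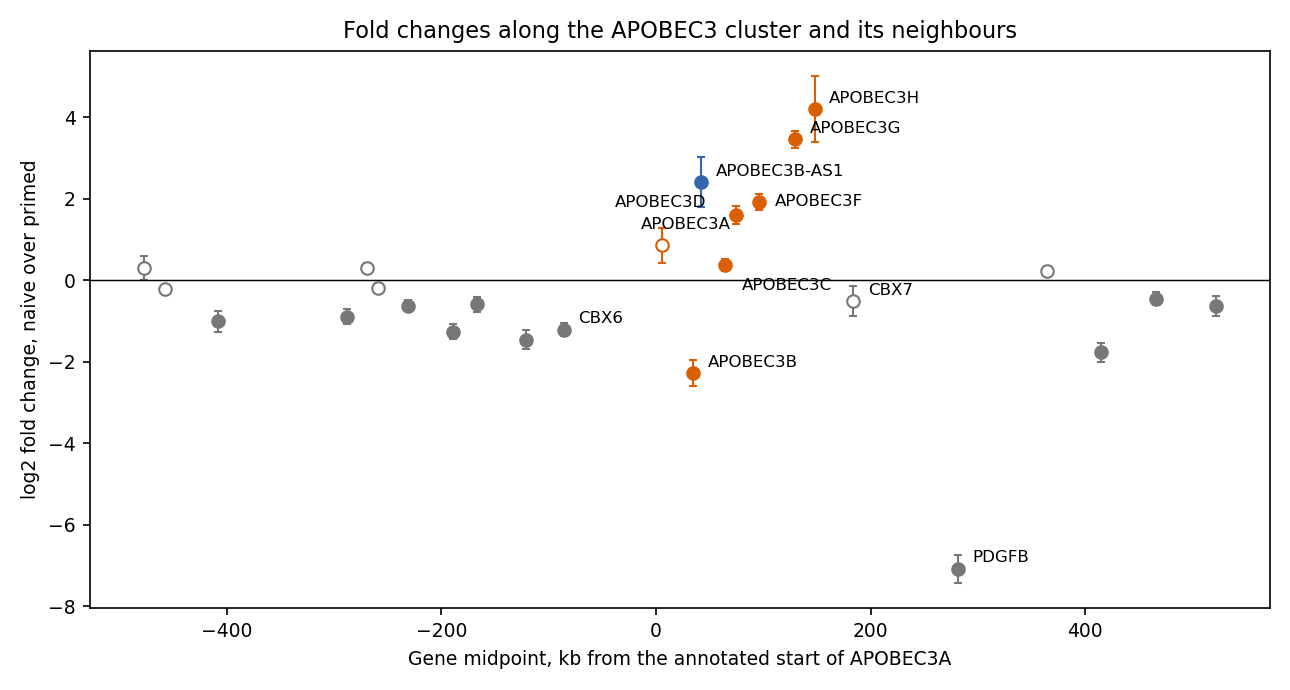
Log2 fold change of naive over primed cells (edgeR, bars are SE) against the midpoint of each gene in kb from the annotated start of APOBEC3A, with APOBEC3 genes in orange, APOBEC3B-AS1 in blue and neighbours in grey. Filled points passed the test, and the 5 called APOBEC3 genes above 0 lie to the right of APOBEC3B, with no neighbour called by edgeR above 0.

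Outside the cluster, APOBEC1, APOBEC2 and APOBEC4 had too few counts to be tested. APOBEC1, the editor of apolipoprotein B RNA, had 0 counts in every library. APOBEC4 had at most 1 count. APOBEC2, a muscle protein, had 23 counts in EOS primed, 3 in CA-p38 primed and at most 1 in naive libraries. Among other deaminases and RNA editors, 2 of 12 tested were higher and 5 lower in naive cells (median log2 fold change -0.45). CDA, which deaminates free cytidine, rose (log2 fold change 3.47) together with the tRNA deaminase subunit ADAT3 (1.33), whereas the adenosine deaminase of double-stranded RNA, ADAR (-1.15), and the dCMP deaminase DCTD (-0.77) fell.

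Uracil that APOBEC3 enzymes leave in DNA is removed by base excision repair. Of 15 genes for uracil handling and base excision repair, 2 were higher and 9 lower in naive cells (median log2 fold change -0.41). UNG, the main uracil glycosylase, was at 117 ± 14.0 CPM in naive and 177 ± 2.68 CPM in primed cells (log2 fold change -0.59, edgeR adjusted p = 0.000785). TDG, another glycosylase (-1.39), and DUT, which keeps uracil out of DNA (-1.03), fell furthest among the well expressed ones. SAMHD1, a dNTP hydrolase that starves retroviruses of nucleotides, was an exception, at 430 ± 20.1 CPM in naive and 44.5 ± 6.87 CPM in primed cells (log2 fold change 3.27, SE 0.13, adjusted p = 4.65e-10).

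Other genes listed for retroelement restriction, not all of them established as restriction factors, moved in both directions. Of 21 tested, 3 were higher and 8 lower in naive cells (median log2 fold change -0.11). PIWIL1, a piRNA-binding protein (2.08), and ISG20, an exonuclease (1.62), were the highest, and the call of ISG20 was lost with limma-voom (adjusted p = 0.0869), without AICAR naive 2 (0.0700), without EOS primed (0.0840) and without CA-p38 primed (0.134). TRIM5, which binds retroviral capsids, fell from 24.5 ± 0.594 CPM in primed to 1.74 ± 0.450 CPM in naive cells (log2 fold change -3.81, edgeR adjusted p = 1.99e-08), and L1TD1, an RNA-binding protein derived from LINE-1, fell as well (-1.43).

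Several APOBEC3 genes answer to interferon in other cells. Of 34 interferon-stimulated genes tested, 15 were higher and 11 lower in naive cells (median log2 fold change 0.46). IFITM1, which blocks virus entry (2.82), and IFI35 (2.68) were highest, while IFIT1, a sensor of foreign RNA caps (-3.97), and DDX58, which encodes the RNA sensor RIG-I (-2.89), were lowest among those with at least 1 CPM. Of the transcription factors of the interferon response, IRF9 (2.18) and IRF7 (1.29) were higher in naive cells.

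Among 22 genes reported elsewhere as regulators of APOBEC3B, 7 were higher and 5 lower in naive cells (median log2 fold change -0.10). The highest were NFKB2, a subunit of the noncanonical NF-κB pathway, at 426 ± 23.7 CPM in naive and 20.3 ± 4.44 CPM in primed cells (log2 fold change 4.39), and MYBL2, a cell cycle factor (1.66). Among the lowest was PRKCA, a protein kinase C gene, at 4.65 ± 1.41 CPM in naive and 30.5 ± 9.10 CPM in primed cells (-2.71). The list holds activators and repressors alike, so that its median has no set direction.

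The genes whose profile over the 6 libraries was most like that of a member were found by the distance between centred log2 CPM values, among 18060 genes whose mean reached 1 CPM. For APOBEC3B these were CADM4 (distance 0.130), FZD1 (0.179) and PAQR8 (0.340), each with its highest level in EOS primed. For APOBEC3G they were BARX1 (0.183), FBXO36 (0.275) and ZNF876P (0.315), for APOBEC3F they included KDM4C (0.174) and CXCL16 (0.185), and for APOBEC3D they were PPP3CC (0.181), MGAT4A (0.183) and AC005224 (0.184). APOBEC3C was nearest to R3HDM2 (0.0772), PHYHD1 (0.135) and KLC4 (0.137), and APOBEC3A to LINC02082 (0.144), AP001885 (0.256) and TNFRSF13C (0.273). APOBEC3H had no close match, with LRRC43 (1.14), MDGA1 (1.44) and FXYD3 (1.45) nearest. Within the family the closest pair was APOBEC3D and APOBEC3F (0.505), which also share sequence, and the most distant was APOBEC3B and APOBEC3H (7.47).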

How the data were processed

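Bulk RNA-seq of 6 libraries was analysed. Per the labels and the study's methods, polyadenylated RNA was made into libraries with the SMART-Seq Stranded kit, and the authors trimmed reads (Trim Galore 0.4.4, cutadapt 1.15) and mapped them with Bowtie2 to Ensembl cDNA and noncoding RNA sequences of GRCh38, keeping alignments above a minimum mapping quality. The authors deposited whole-number counts for each Ensembl gene identifier, not normalized. A further 23 columns belong to other studies and were left out.

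Of 61222 features, 26 spike-in sequences were left out. Identifiers that share a name were summed, and names of the clone type (such as AC005224) pool several identifiers. Positions came from GENCODE 44 (GRCh38), where 56154 of 61196 identifiers lie on chromosomes, and the coding sequences from the GRCh38 genome. The quasi-likelihood test of edgeR 4.0.16 (R 4.3.3; TMM scaling, filterByExpr by state, no covariates) set the 4 naive against the 2 primed libraries over 26497 genes, with Benjamini-Hochberg adjustment at 0.05. CPM values (counts relative to the library total over all gene rows, on the usual scale) are TMM-scaled (factors 0.936 to 1.06) and the common dispersion was 0.0563. SE values come from the fold change and the F statistic. Folds over the parental library used a prior count of 0.5 and 95% Clopper-Pearson intervals; intervals and the floor of 3 counts cover counting error only. With 4 against 2 libraries an exact permutation test of a single value cannot go below p = 0.0667 (two-sided), so none was used. It is not stated that libraries came from separate cultures, so p-values measure the spread between libraries, which may be technical in part. The study gives the AICAR libraries as consecutive passages after induction, and separate inductions were not stated. The chi-square per gene of the AICAR pair, 24.0, lay toward the low end of the other naive pairs (22.6 to 41.6).

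The members and the lists (other APOBEC genes, other deaminases and RNA editors, uracil handling and base excision repair, retroelement restriction, interferon-stimulated genes, reported APOBEC3B regulators, chromosome 22 neighbours, cell type markers) were chosen with earlier results of these data known. Every member was named. From each list the 2 highest and 2 lowest fold changes among called genes averaging 1 CPM or more were named, with the other APOBEC genes, CBX6, CBX7 and the 3 nearest profiles per member; APOBEC3B-AS1, the readthrough gene, UNG, IRF7, IRF9 and the leukocyte markers were named after their values were seen. Some genes that the rule names are not reported here. Alternatives covered scaling, DESeq2 1.42.0, limma-voom 3.58.1, filters, identifiers, the parental line as a block, summed AICAR libraries and each library left out. The tests were checked on simulated counts with 1 common dispersion, in which 200 of 25841 genes were changed. There edgeR recovered 79.5% of the changed genes with 12 false calls, but only 29.8% of those changed 2-fold. Far more genes were called in the data, so scaling and calling with that many changed genes were not checked.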

Additional observations from a re-analysis of the deposited data

How the results depend on the processing

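APOBEC3B, APOBEC3D, APOBEC3F and APOBEC3G kept their direction and their call in 15 of 15 alternatives, and APOBEC3H in 14 of 14 (highest adjusted p 0.0440, with limma-voom). APOBEC3H could not be tested with at least 10 counts in every library. APOBEC3A was called in 0 of 15. The count of members called higher was 4 or 5 throughout (4 where APOBEC3C was lost or APOBEC3H not tested). APOBEC3C lost its call in 9 alternatives, beside the libraries named above with median-ratio factors (log2 fold change 0.33, adjusted p = 0.0701), with DESeq2 (0.33, 0.0615), without a filter on low counts (0.35, 0.0580), with the identifier on the chromosome only (0.36, 0.0527) and with the parental line as a replicate block (0.37, 0.0573), which changed no other member's call. The block rests on the labelled line, since the groups share no replicate numbers. No member's fold change reversed its direction, but the culture with the highest fold of APOBEC3G and APOBEC3D changed from CA-p38 naive to VPA naive when the primed libraries were averaged as the reference. Without scaling factors the genes called moved from 6893 higher and 7165 lower to 7620 and 6498, which turns their balance, and the median log2 fold change over all of them from 0.11 to 0.20. Leaving out a primed library leaves 1, which is then assumed to vary like the naive ones. The folds of APOBEC3C over a parental library left their counting interval in all 4 cultures when the primed libraries were averaged as the reference, and in AICAR naive 2 and CA-p38 naive with library totals. Depth limits APOBEC3H and APOBEC3A most, with 4 and 26 counts in CA-p38 primed.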

Other observations

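Among the naive libraries VPA naive had the highest CPM of APOBEC3B, APOBEC3D, APOBEC3G and APOBEC3H (2.08, 14.6, 27.6 and 2.50), CA-p38 naive that of APOBEC3C and APOBEC3F (42.9 and 25.1) and AICAR naive 2 that of APOBEC3A (1.49). The AICAR pair, induced with the same compound, differed most in APOBEC3H (20 and 91 counts), APOBEC3B (96 and 48 counts) and APOBEC3A (45 and 74 counts). Between the primed libraries EOS primed was higher than CA-p38 primed in all members but APOBEC3H, by 1.147-fold (APOBEC3D) to 1.42-fold (APOBEC3G). None of these differences between single libraries was tested.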
